A study of Saccharomyces cerevisiae with 16 samples.

Results

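The 8 genes described here, TAH18, DRE2, NBP35, CFD1, NAR1, CIA1, CIA2 and MET18, encode the yeast machinery that builds and delivers iron-sulfur clusters in the cytosol. They are 8 of 5404 named genes tested on the array, and 5771 probe sets were tested in all. The members were chosen by gene name, with TAH18 selected on its measured response to acrolein, so the differences of TAH18 are given as a description with no test. The other 7 genes were taken as the rest of the pathway. Where a gene had several probe sets the brightest was to stand for it, but each of the 8 had 1 probe set, and all 8 were measured on every array and were among the 5771 probe sets fitted.

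Iron-sulfur clusters are inorganic cofactors of enzymes in DNA replication and repair, ribosome recycling, tRNA modification and amino acid synthesis. In yeast, mitochondria make the clusters of their own proteins and export a sulfur-containing compound, from which the cytosolic assembly pathway makes clusters for proteins of the cytosol and nucleus. In that pathway the flavoprotein Tah18 takes electrons from NADPH and passes them to Dre2. The Nbp35 and Cfd1 proteins form the scaffold on which a cluster is assembled, Nar1 carries the path on from the scaffold, and Cia1, Cia2 and Met18 form the complex that hands the cluster to recipient proteins.

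Transcripts were measured on 16 Affymetrix arrays, with 4 arrays per group. Each probe set of an array reports the signal of a transcript, or in some cases of several genes. Cultures of wild-type BY4741, a haploid strain from which the marker genes LEU2, MET17 and URA3 are deleted and HIS3 is partly deleted, were treated at 30 °C for 1 h with acrolein at 0.05 mM, with hydrogen peroxide (H2O2) at 0.3 mM or with NEM at 0.016 mM, or received no chemical as the control. Acrolein is a reactive unsaturated aldehyde, and the abbreviation NEM is taken to stand for N-ethylmaleimide, a compound that reacts with thiols. All groups were in early exponential growth in rich glucose medium, so the control shares the strain's deletions and the medium with the treated cells.

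The deletions offered a check of the strain. All 16 arrays showed URA3 and MET17 at the file's minimum of 1.92, and 15 arrays showed LEU2 there, with 1.98 on the other. Values are log2 signal, in which a difference of 1 is a doubling, and array medians lay between 11.85 and 11.92. Acrolein replicate 1 stood apart in RNA quality, with a mean ribosomal RNA signal of 15.48 and a 3′ minus 5′ signal of 1.20, against 8.75 to 11.55 and 0.60 to 0.72 on the control arrays. H2O2 replicates 1 and 4 had ribosomal RNA signals of 7.80 and 4.38. Against the control, ribosomal RNA signal differed by 1.63 with acrolein (two-sided exact permutation p = 0.314), by -2.01 with H2O2 (p = 0.343) and by 0.93 with NEM (p = 0.4), where the smallest possible p is 0.0286. Set against the control array of the same replicate number, ribosomal RNA signal was higher on 4 of 4 acrolein arrays, by 3.93, 1.10, 1.05 and 0.45, and on 4 of 4 NEM arrays, by 0.80, 1.26, 1.17 and 0.48. A paired exact permutation test, added after the data were seen, gave p = 0.125 for both, the smallest that 4 pairs allow. The part of this shift in the results below was not tested. Without acrolein replicate 1 the unpaired acrolein difference was 0.55, and without H2O2 replicate 4 the H2O2 difference was -0.60. The 3′ minus 5′ difference was 0.16, 0.09 and 0.03 (exact permutation p = 0.171, 0.0857 and 0.4), and 0.03 for acrolein without replicate 1. Paired by number, it was higher on 4 of 4 acrolein arrays, by 0.6072, 0.0009, 0.0221 and 0.0261, and on 3 of 4 NEM arrays. Results for the 8 genes against the control are also given without acrolein replicate 1, H2O2 replicate 1 or H2O2 replicate 4.

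TAH18 and DRE2 encode the electron transfer chain. TAH18 (YPR048W) signal was far higher under all 3 treatments than in the control. It read 13.37, 13.14, 13.10 and 13.14 on the acrolein arrays, 11.21, 11.23, 11.29 and 10.89 on the H2O2 arrays and 12.62, 12.33, 12.35 and 12.21 on the NEM arrays, against 8.35, 8.26, 8.91 and 8.19 on the control arrays. No 2 groups overlapped, in the order acrolein, NEM, H2O2 and control from high to low. The control arrays were nonetheless above 5.15, so the gene was measurable without treatment. That is the highest value reached on this array by probe sets annotated to another yeast species or to several genes.

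Against the control TAH18 differed by 4.76 ± 0.15 with acrolein, 2.73 ± 0.15 with H2O2 and 3.95 ± 0.15 with NEM (SE on the log2 scale, n = 4 against 4). These are 27.1-fold, 6.62-fold and 15.5-fold. Without acrolein replicate 1, which gave the highest of the 4 acrolein values, the acrolein difference was 4.70, and without H2O2 replicate 4, the lowest of its group, the H2O2 difference was 2.82. Without H2O2 replicate 1 it was 2.71. The largest shift of the acrolein difference came without control replicate 3, the highest control array, where it was 4.92. With any single array left out, the H2O2 difference ran from 2.65 to 2.89 and the NEM difference from 3.87 to 4.11. In bulk RNA, a change in the share of cells that make a transcript and a change in transcript per cell cannot be told apart.

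DRE2 (YKR071C), whose product is itself an iron-sulfur protein and the partner of Tah18, was also higher under all 3 treatments, by less. It read 14.44, 14.66, 14.56 and 14.69 on the acrolein arrays, 14.34, 14.38, 14.31 and 14.24 on the H2O2 arrays and 14.79, 14.77, 14.73 and 14.72 on the NEM arrays, against 13.18, 13.22, 13.22 and 13.23 on the control arrays. Every treated array was above every control array, and the NEM arrays were the highest. DRE2 rose by 1.37 ± 0.05 with acrolein (limma adjusted p = 4.61e-11), by 1.11 ± 0.05 with H2O2 (adjusted p = 1.39e-09) and by 1.54 ± 0.05 with NEM (adjusted p = 1.37e-11). These correspond to 2.59-fold, 2.15-fold and 2.91-fold. The labels do not say whether replicates were separate cultures, so the p-values cover only array-to-array spread, which can be of technical origin.

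**Figure D1:**
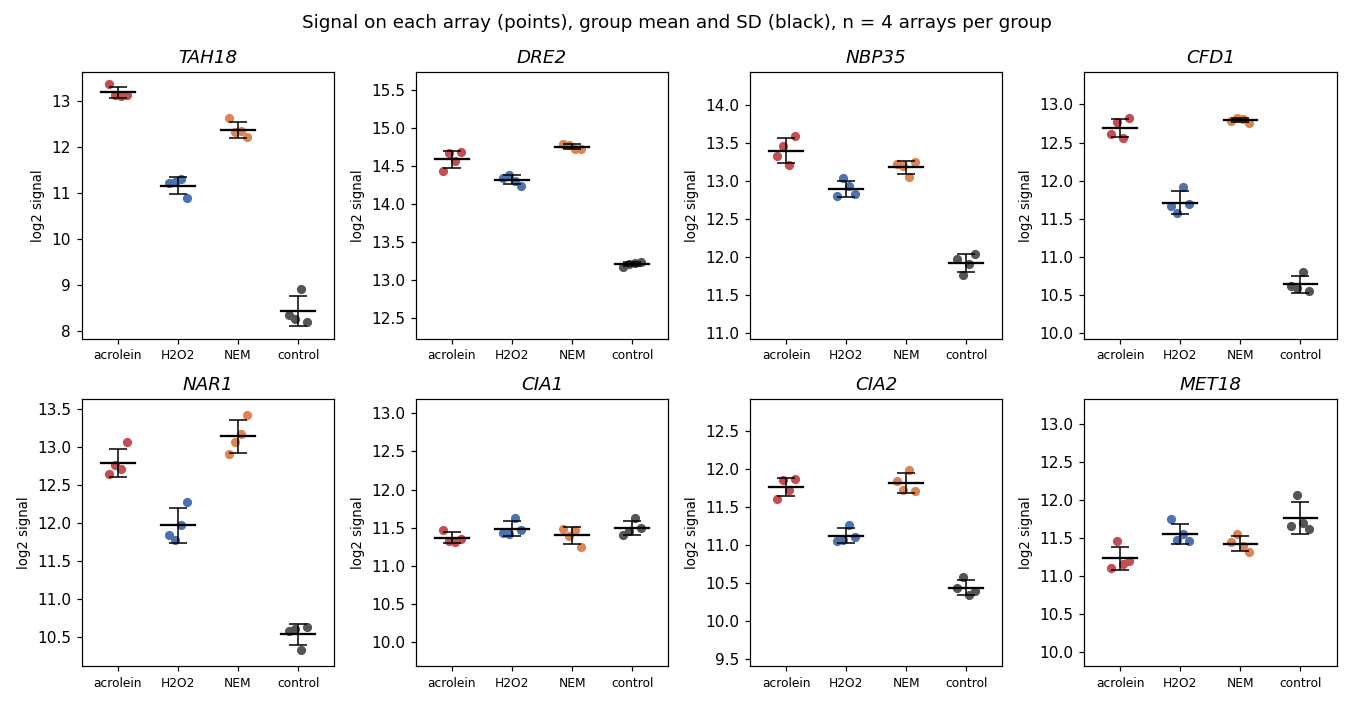
Log2 signal (y axis) of each of the 8 genes on the 16 arrays, by group (x axis). Points are arrays, the horizontal bar is the group mean and the whisker is the SD (n = 4); the y axis spans more in the TAH18 panel than in the others. In TAH18, DRE2, NBP35, CFD1, NAR1 and CIA2 every treated array is above every control array, in CIA1 the groups overlap, and in MET18 the acrolein and NEM arrays lie below the control arrays.

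NBP35 and CFD1 encode the scaffold, a pair of related P-loop NTPases, and both genes rose under each treatment. NBP35 (YGL091C) read 13.33, 13.46, 13.21 and 13.60 with acrolein, 12.81, 13.03, 12.94 and 12.83 with H2O2 and 13.22, 13.20, 13.05 and 13.24 with NEM, against 11.97, 11.77, 11.91 and 12.05 in the control. The treated arrays were clear of the control arrays, while the acrolein and NEM ranges overlapped. NBP35 rose by 1.47 ± 0.08 with acrolein (limma adjusted p = 6.33e-09), by 0.98 ± 0.08 with H2O2 (adjusted p = 1.81e-06) and by 1.25 ± 0.08 with NEM (adjusted p = 3.1e-08).

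CFD1 (YIL003W) read 12.62, 12.76, 12.56 and 12.82 with acrolein, 11.66, 11.57, 11.92 and 11.69 with H2O2 and 12.79, 12.82, 12.81 and 12.76 with NEM, against 10.62, 10.59, 10.80 and 10.55 in the control. Acrolein and NEM arrays overlapped, and both sets were above all H2O2 arrays, which were above all control arrays. CFD1 rose by 2.05 ± 0.08 with acrolein (limma adjusted p = 9.05e-11), by 1.07 ± 0.08 with H2O2 (adjusted p = 2.36e-07) and by 2.15 ± 0.08 with NEM (adjusted p = 5.14e-11).

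The 2 scaffold genes can be set against each other within an array, where the difference of their log2 signals is free of anything that scales the whole array. Relative to its control mean, the CFD1 minus NBP35 difference was 0.58 with acrolein, 0.09 with H2O2 and 0.90 with NEM. The CFD1 minus NBP35 difference itself ranged from -0.77 to -0.65 on the acrolein arrays and from -0.48 to -0.24 on the NEM arrays, against -1.50 to -1.11 on the control arrays. The acrolein and NEM arrays were thus clear of the control arrays in this difference, and the H2O2 arrays, at -1.46 to -1.02, overlapped them. These within-array differences were chosen after the values were seen and were given no test, and signals of different probe sets do not give the relative abundance of their transcripts.

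NAR1 (YNL240C) encodes an iron-sulfur protein related to iron-only hydrogenases that acts between the scaffold and the targeting complex. It read 12.64, 12.76, 12.71 and 13.06 on the acrolein arrays, 11.84, 11.77, 11.97 and 12.28 on the H2O2 arrays and 12.90, 13.06, 13.17 and 13.42 on the NEM arrays, against 10.58, 10.61, 10.33 and 10.63 on the control arrays. The treated arrays were all above the control arrays, and NEM and acrolein overlapped. Of the 7 genes tested, NAR1 had the largest difference under each treatment, at 2.25 ± 0.13 for acrolein (limma adjusted p = 7.69e-09), 1.43 ± 0.13 for H2O2 (adjusted p = 3.3e-06) and 2.60 ± 0.13 for NEM (adjusted p = 1.65e-09). These are 4.77-fold, 2.69-fold and 6.07-fold.

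The 3 genes of the targeting complex did not move together. CIA2 (YHR122W) rose under each treatment, CIA1 (YDR267C), which encodes a WD40-repeat protein, passed the test under none, and MET18 (YIL128W), which encodes a HEAT-repeat protein known as MMS19 in humans, fell with acrolein and NEM.

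CIA2 read 11.61, 11.85, 11.72 and 11.87 with acrolein, 11.05, 11.07, 11.27 and 11.11 with H2O2 and 11.84, 11.72, 11.99 and 11.72 with NEM, against 10.44, 10.58, 10.35 and 10.40 in the control. All treated arrays were above all control arrays, and acrolein and NEM overlapped. CIA2 rose by 1.32 ± 0.08 with acrolein (limma adjusted p = 8.17e-09), by 0.69 ± 0.08 with H2O2 (adjusted p = 2.75e-05) and by 1.38 ± 0.08 with NEM (adjusted p = 5.13e-09).

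CIA1 read 11.47, 11.32, 11.32 and 11.36 with acrolein, 11.42, 11.42, 11.63 and 11.47 with H2O2 and 11.49, 11.40, 11.47 and 11.25 with NEM, against 11.41, 11.45, 11.63 and 11.49 in the control. The 4 groups overlapped. The CIA1 difference was -0.13 for acrolein (95% interval -0.27 to 0.01, limma adjusted p = 0.101), -0.01 for H2O2 (-0.15 to 0.13, adjusted p = 0.953) and -0.10 for NEM (-0.24 to 0.04, adjusted p = 0.224). A rise in CIA1 above 1.01-fold with acrolein, 1.09-fold with H2O2 or 1.03-fold with NEM lies outside these intervals. Without acrolein replicate 1 the acrolein difference of CIA1 was -0.16 (limma adjusted p = 0.0564), and its H2O2 difference was 0.01 without H2O2 replicate 1 (adjusted p = 0.978) and -0.01 without H2O2 replicate 4 (adjusted p = 0.997).

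MET18 read 11.11, 11.46, 11.16 and 11.19 with acrolein, 11.74, 11.48, 11.55 and 11.46 with H2O2 and 11.45, 11.55, 11.39 and 11.31 with NEM, against 11.65, 12.07, 11.70 and 11.61 in the control. The acrolein and NEM arrays were below every control array, and the H2O2 arrays overlapped the control. The difference was -0.53 ± 0.11 for acrolein (limma adjusted p = 0.00064), -0.33 ± 0.11 for NEM (adjusted p = 0.0149) and -0.20 ± 0.11 for H2O2 (adjusted p = 0.204). At a threshold of 0.01 the NEM call was lost. Without acrolein replicate 1 the acrolein difference of MET18 was -0.49 (limma adjusted p = 0.00262), and its H2O2 difference was -0.26 without H2O2 replicate 1 (adjusted p = 0.117) and -0.17 without H2O2 replicate 4 (adjusted p = 0.364).

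**Figure D2:**
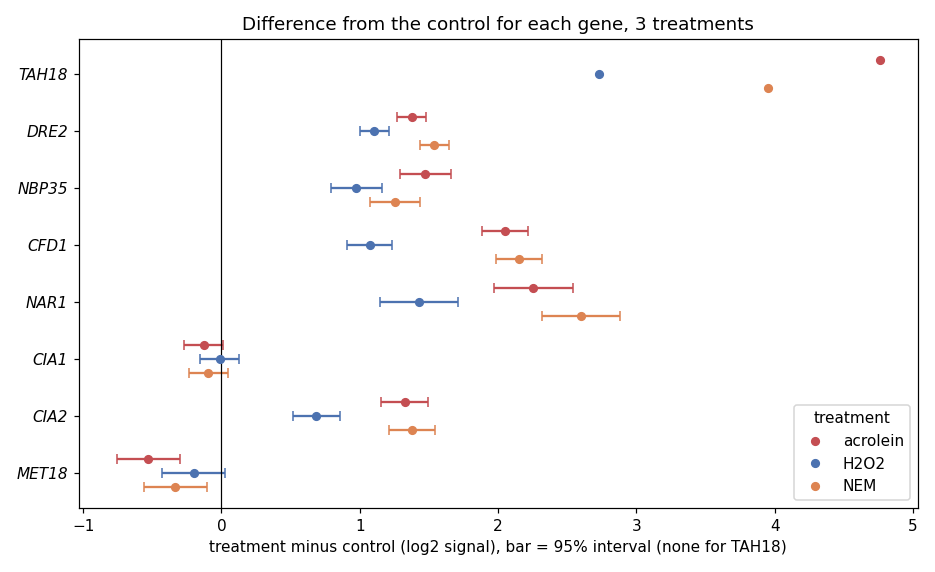
Difference from the control in log2 signal (x axis) for each gene (y axis) under acrolein, H2O2 and NEM. Points are differences of group means (n = 4 arrays each) and bars are 95% intervals from the model over all probe sets, left out for TAH18, which was chosen on its response. TAH18 lies furthest right, at 2.73 to 4.76, and CIA1 and MET18 lie at or left of 0.

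Within the targeting complex, CIA2 moved relative to both partners on every treated array. Relative to the control mean of the same difference, CIA2 minus CIA1 was 1.20, 1.59, 1.46 and 1.57 on the acrolein arrays, 0.68, 0.71, 0.70 and 0.70 on the H2O2 arrays and 1.41, 1.38, 1.58 and 1.52 on the NEM arrays, against 0.09, 0.18, -0.22 and -0.04 on the control arrays. CIA2 minus MET18 averaged 1.85 with acrolein, 0.89 with H2O2 and 1.71 with NEM on the same footing. No treated array overlapped the control arrays in either difference. This split was noticed after the values were seen and carries no test of its own beyond the 3 genes' separate ones.

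**Figure D3:**
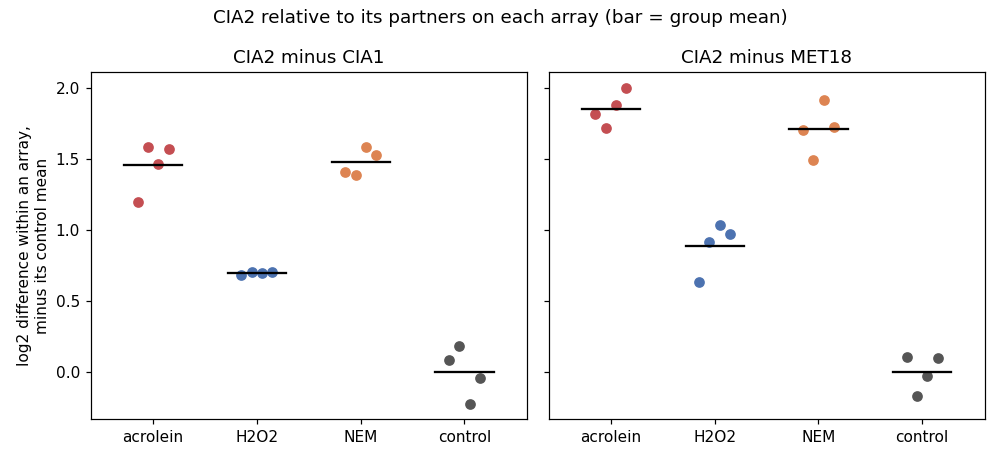
Difference of log2 signals within each array (y axis, shifted so that the control mean is 0) for CIA2 minus CIA1 (left) and CIA2 minus MET18 (right), by group (x axis). Points are arrays and bars are group means (n = 4); all treated points lie above the control points, and the H2O2 points lie between the control points and those of acrolein and NEM.

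Counted over the 7 genes other than TAH18, acrolein raised 5 (DRE2, NBP35, CFD1, NAR1 and CIA2) and lowered 1 (MET18), at an adjusted p under 0.05 by limma. Of all 5771 probe sets 27.2% were called higher and 36.9% lower with acrolein. With H2O2 the same 5 genes were called higher and 0 of 7 lower, also 0 of 7 at an unadjusted p under 0.05, where 9.25% of all probe sets were called higher and 10.6% lower. With NEM 5 genes were called higher and MET18 lower, where 26.5% and 32.2% of all probe sets were called. The median difference over the 7 genes was 1.37 with acrolein, 0.98 with H2O2 and 1.38 with NEM, against -0.05, -0.02 and -0.01 over all probe sets.

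For 5 of the 7 genes every treated array was above every control array under each treatment, where 24.6% of all probe sets were so placed with acrolein, 10.8% with H2O2 and 24.4% with NEM. The 3 comparisons share the same control arrays, so they are not independent of each other. The calls of the 5 genes did not depend on the arrays that stood apart. Without acrolein replicate 1 their acrolein differences ran from 1.38 for CIA2 to 2.31 for NAR1, and their H2O2 differences ran from 0.71 for CIA2 to 1.47 for NAR1 without H2O2 replicate 1 and from 0.69 to 1.32 for the same genes without H2O2 replicate 4, all still called.

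The treatments were also set against each other at the doses used, which differ, so the differences rank neither potency nor specificity. Acrolein gave higher signal than H2O2 for 5 of the 7 genes, by 0.27 ± 0.05 for DRE2 (limma adjusted p = 0.000389), 0.50 ± 0.08 for NBP35 (adjusted p = 0.000261), 0.98 ± 0.08 for CFD1 (adjusted p = 2.67e-07), 0.83 ± 0.13 for NAR1 (adjusted p = 0.000158) and 0.64 ± 0.08 for CIA2 (adjusted p = 1.66e-05). On all 4 acrolein arrays these genes were above all 4 H2O2 arrays, and the share of all probe sets so placed was not counted. MET18 was lower with acrolein than with H2O2 by -0.33 ± 0.11 (adjusted p = 0.0179), a call lost without acrolein replicate 1 (adjusted p = 0.052) and without H2O2 replicate 1 (adjusted p = 0.0605). Between these treatments 26.0% of all probe sets were called higher with acrolein and 30.0% lower.

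NEM likewise gave higher signal than H2O2 for DRE2, NBP35, CFD1, NAR1 and CIA2, by 0.28 ± 0.08 (NBP35, limma adjusted p = 0.014) to 1.17 ± 0.13 (NAR1, adjusted p = 6.34e-06). In this comparison 25.1% of all probe sets were called higher with NEM and 27.3% lower. Neither CIA1 nor MET18 was called, at -0.09 ± 0.07 (adjusted p = 0.3) and -0.13 ± 0.11 (adjusted p = 0.319).

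Between acrolein and NEM, 3 of the 7 genes were called. With acrolein, NBP35 was higher than with NEM by 0.22 ± 0.08 (limma adjusted p = 0.0445), and DRE2 and NAR1 were lower by -0.16 ± 0.05 (adjusted p = 0.0123) and -0.35 ± 0.13 (adjusted p = 0.0431). The intervals of the 4 genes not called were -0.27 to 0.06 for CFD1, -0.22 to 0.12 for CIA2, -0.17 to 0.11 for CIA1 and -0.42 to 0.03 for MET18. Of all probe sets 24.2% were called higher with acrolein than with NEM and 25.8% lower. The 3 calls became 1 without acrolein replicate 1, H2O2 replicate 3, NEM replicate 2, 3 or 4, or control replicate 1, and 0 in a fit of these 2 groups alone. TAH18 itself was 0.81 ± 0.15 higher with acrolein than with NEM and 2.03 ± 0.15 higher than with H2O2.

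Other genes that work beside the pathway were described from 5 lists, each by its counts and median. The first holds 5 cofactors of cytosolic assembly. LTO1, whose product with Yae1 adapts the targeting complex to the ribosome recycling factor Rli1, had the largest difference of the list. LTO1 read 13.12, 13.17, 13.19 and 13.33 with acrolein, 11.93, 12.11, 12.24 and 11.72 with H2O2 and 13.32, 13.24, 13.14 and 12.87 with NEM, against 10.48, 10.52, 10.50 and 10.39 in the control. All treated arrays were above the control arrays, and acrolein and NEM overlapped. LTO1 rose by 2.73 ± 0.11 with acrolein (limma adjusted p = 1.47e-10), 1.53 ± 0.11 with H2O2 (adjusted p = 2.02e-07) and 2.67 ± 0.11 with NEM (adjusted p = 1.72e-10).

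YAE1 did not follow its partner. It fell by 0.43 ± 0.07 with acrolein (limma adjusted p = 0.000183) and by 0.32 ± 0.07 with H2O2 (adjusted p = 0.00785), and its NEM difference was 0.05 ± 0.07 (adjusted p = 0.587). GRX3 and GRX4 encode glutaredoxins that handle iron and iron-sulfur clusters, and BOL2 encodes their partner in iron sensing. GRX3 rose with acrolein (0.56 ± 0.06, limma adjusted p = 4.44e-06), and GRX4 rose with NEM (1.34 ± 0.09, adjusted p = 2.95e-08), with a NEM minus H2O2 difference of 1.64 ± 0.09 (adjusted p = 6.39e-09) and an acrolein minus NEM difference of -1.24 ± 0.09 (adjusted p = 3.35e-07). BOL2 fell by 0.27 ± 0.05 with acrolein (adjusted p = 0.000437) and by 0.23 ± 0.05 with NEM (adjusted p = 0.00166).

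Over these 5 genes acrolein gave 2 called higher and 2 lower, H2O2 1 higher and 2 lower, and NEM 2 higher and 1 lower. Over all probe sets 27.2% were called higher and 36.9% lower with acrolein, 9.25% and 10.6% with H2O2, and 26.5% and 32.2% with NEM. Medians of the 5 genes were 0.10, 0.00 and 0.12. The 2 genes lower with H2O2 were YAE1 and GRX4 (-0.30 ± 0.09, limma adjusted p = 0.0301), and the count was 1 without H2O2 replicate 1 or 4 or control replicate 2 or 3.

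Cytosolic and nuclear proteins that carry iron-sulfur clusters, the recipients of the pathway, formed a list of 16 genes. Of these acrolein raised 9 and lowered 3 by limma's test, with a median of 0.37, and NEM raised 8 and lowered 3, with a median of 0.33. H2O2 raised 0 and lowered 1, with a median of 0.00, and at an unadjusted p under 0.05 it raised 3 and lowered 1. The shares over all probe sets were 27.2% higher and 36.9% lower with acrolein, 26.5% and 32.2% with NEM, and 9.25% and 10.6% with H2O2. The H2O2 count of higher genes was 1 without acrolein replicate 3 and 3 in a fit of H2O2 and control alone.

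The largest acrolein differences in this list were those of ELP3 (1.29 ± 0.18, limma adjusted p = 4.21e-05), of the Elongator complex that modifies tRNA, DPH1 (1.27 ± 0.23, adjusted p = 0.000323) and DPH2 (0.99 ± 0.16, adjusted p = 9.86e-05), which act in diphthamide synthesis, and RLI1 (0.87 ± 0.14, adjusted p = 0.000127). The largest NEM differences were those of MET5 (1.94 ± 0.06, adjusted p = 7.93e-12), a subunit of sulfite reductase, the tRNA-modifying gene TYW1 (1.49 ± 0.16, adjusted p = 2.71e-06), and the replication genes DNA2 (1.03 ± 0.14, adjusted p = 3.22e-05) and POL2 (1.00 ± 0.10, adjusted p = 1.17e-06). The 2 compounds thus had different leading genes, though some of these were called with both. ELP3 (0.67 ± 0.18) and DPH2 (0.43 ± 0.16) were also called higher with NEM. MET5 (0.42 ± 0.06) and TYW1 (0.73 ± 0.16) were also called higher with acrolein. DPH1 and RLI1 were not called with NEM, nor DNA2 and POL2 with acrolein. RLI1 was 0.72 ± 0.14 higher with acrolein than with NEM (adjusted p = 0.00115), and MET5 was lower by -1.51 ± 0.06 (adjusted p = 1.37e-09). LEU1, which encodes an enzyme of leucine synthesis, fell by 0.65 ± 0.05 with acrolein (adjusted p = 3.06e-07), 0.57 ± 0.05 with H2O2 (adjusted p = 5.03e-06) and 0.63 ± 0.05 with NEM (adjusted p = 4.01e-07).

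**Figure D4:**
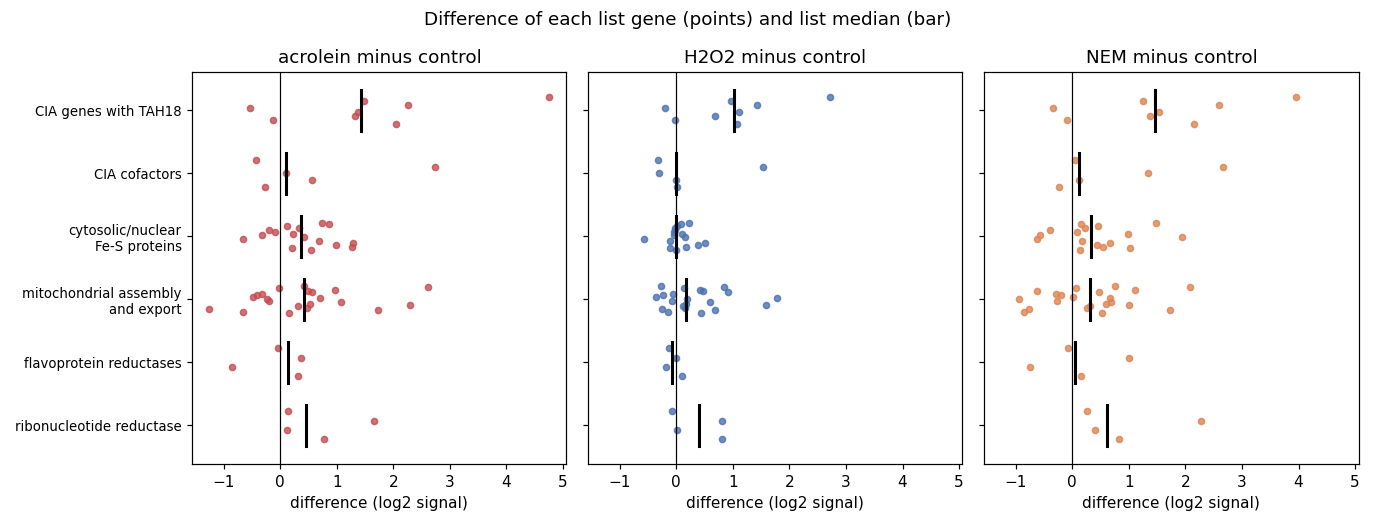
Difference from the control in log2 signal (x axis) for each gene (point) of the 8 described genes and of the 5 lists (y axis), in 1 panel per treatment. Black bars are list medians. The bar of the described genes includes TAH18, which was chosen on its response. Without TAH18 their median is 1.37 with acrolein, 0.98 with H2O2 and 1.38 with NEM, above each list median. The 4 ribonucleotide reductase genes lie right of 0 with acrolein and with NEM.

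The mitochondrial genes that start the process were measured for 21 of 22 listed, since BOL1 is not analysed here. Acrolein raised 12 and lowered 6 (median 0.42), H2O2 raised 8 and lowered 1 (median 0.18), and NEM raised 12 and lowered 7 (median 0.32), by limma's test. Over all probe sets 27.2% were higher and 36.9% lower with acrolein, 9.25% and 10.6% with H2O2, and 26.5% and 32.2% with NEM, so the list's lower counts were near or under the share over all probe sets. The 1 gene lower with H2O2, the chaperone cofactor MGE1 (-0.23 ± 0.08, adjusted p = 0.0479), was lost when any of 12 arrays was left out and after quantile normalization or median centring.

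YAH1, the mitochondrial ferredoxin that supplies electrons for assembly there, read 13.02, 12.80, 12.93 and 12.98 with acrolein, 11.12, 11.27, 10.83 and 11.42 with H2O2 and 12.53, 12.21, 12.38 and 12.45 with NEM, against 10.35, 10.27, 10.12 and 10.52 in the control. No 2 groups overlapped, as for TAH18. YAH1 rose by 2.62 ± 0.12 with acrolein (limma adjusted p = 5.25e-10), 0.84 ± 0.12 with H2O2 (adjusted p = 0.000174) and 2.08 ± 0.12 with NEM (adjusted p = 4.78e-09). ARH1, the reductase that passes electrons to Yah1, fell by 0.66 ± 0.06 with acrolein (adjusted p = 1.23e-06) and by 0.85 ± 0.06 with NEM (adjusted p = 9e-08).

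ATM1 encodes the inner membrane transporter that exports the compound used by cytosolic assembly. It read 10.31, 10.13, 10.30 and 10.80 with acrolein, 9.30, 9.36, 9.53 and 9.18 with H2O2 and 10.48, 10.38, 10.50 and 10.20 with NEM, against 8.32, 9.00, 8.66 and 8.65 in the control. Treated and control arrays did not overlap. ATM1 rose by 1.73 ± 0.15 with acrolein (limma adjusted p = 5.29e-07), 0.68 ± 0.15 with H2O2 (adjusted p = 0.0067) and 1.73 ± 0.15 with NEM (adjusted p = 4.75e-07).

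IBA57, which acts with Isa1 and Isa2 in the late mitochondrial steps, had another order. It read 13.20, 13.18, 13.21 and 13.31 with acrolein, 12.53, 12.70, 12.55 and 12.26 with H2O2 and 11.95, 11.94, 12.00 and 11.86 with NEM, against 10.96, 10.93, 10.90 and 10.92 in the control. No 2 groups overlapped, and NEM lay below H2O2. The NEM minus H2O2 difference of IBA57 was -0.57 ± 0.07 (limma adjusted p = 1.42e-05), while for ATM1 it was 1.05 ± 0.15 (adjusted p = 6.48e-05) and for YAH1 1.23 ± 0.12 (adjusted p = 1.27e-06).

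The cysteine desulfurase gene NFS1, which provides the sulfur, rose by 0.49 ± 0.09 with acrolein (limma adjusted p = 0.000264) and 0.48 ± 0.09 with H2O2 (adjusted p = 0.00184), and fell by 0.61 ± 0.09 with NEM (adjusted p = 4.49e-05). The scaffold gene ISU2 rose by 1.78 ± 0.06 with H2O2 (adjusted p = 6.94e-11), more than with acrolein, where it rose by 0.71 ± 0.06 (adjusted p = 2.39e-07). ISU1, the other scaffold gene, differed by -0.23 ± 0.08 with acrolein (limma adjusted p = 0.0165) and -0.93 ± 0.08 with NEM (adjusted p = 2.27e-07). The H2O2 difference of ISU1 was 0.18 ± 0.08 (adjusted p = 0.11), not called. The acrolein minus H2O2 difference of ISU2 was -1.07 ± 0.06 (adjusted p = 8.34e-09), opposite in sign to that of DRE2, NBP35, CFD1, NAR1 and CIA2. BOL3 fell by 1.25 ± 0.13 with acrolein (adjusted p = 1.93e-06) and by 0.76 ± 0.13 with NEM (adjusted p = 0.000178). MRS4, a mitochondrial iron importer gene, rose by 0.91 ± 0.08 with H2O2 (adjusted p = 1.55e-06). It was also called higher with acrolein (0.56 ± 0.08, adjusted p = 3.11e-05) and with NEM. NFU1, which acts in cluster delivery, rose by 1.11 ± 0.07 with NEM (adjusted p = 1.63e-08). NFU1 also rose by 0.97 ± 0.07 with acrolein (adjusted p = 7.17e-08) and by 0.43 ± 0.07 with H2O2 (adjusted p = 0.000753). ISU1 and ISU2, GRX3 and GRX4, MRS3 and MRS4, and RNR1 and RNR3 are pairs of similar genes, whose probe sets may share signal.

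Flavoprotein reductases with FMN or FAD domains, as Tah18 has, formed a list of 4 genes. MET10, which with Met5 forms sulfite reductase, rose by 0.37 ± 0.06 with acrolein (limma adjusted p = 6.58e-05) and 1.01 ± 0.06 with NEM (adjusted p = 4.44e-09). MCR1, the mitochondrial cytochrome b5 reductase, fell by 0.85 ± 0.09 with acrolein (adjusted p = 2.13e-06) and by 0.74 ± 0.09 with NEM (adjusted p = 8.5e-06). NCP1, the P450 reductase whose domain plan Tah18 shares, was not called under any treatment, at -0.04, -0.13 and -0.07. Acrolein and NEM each raised 2 of the 4 and lowered 1 by limma. H2O2 raised 0 and lowered 0, with 1 higher and 1 lower at an unadjusted p under 0.05. Over all probe sets the shares were 27.2% higher and 36.9% lower with acrolein, 26.5% and 32.2% with NEM, and 9.25% and 10.6% with H2O2. The H2O2 count of higher genes was 1 without H2O2 replicate 3.

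Ribonucleotide reductase makes the building blocks of DNA, and Dre2 and Tah18 are known to supply electrons for its metal cofactor. Its 4 genes all rose with acrolein and with NEM by limma's test. Of all probe sets 27.2% were called higher with acrolein, 26.5% with NEM and 9.25% with H2O2. The damage-inducible RNR3 rose by 1.66 ± 0.23 with acrolein (adjusted p = 2.88e-05), 0.80 ± 0.23 with H2O2 (adjusted p = 0.0246) and 2.28 ± 0.23 with NEM (adjusted p = 1.56e-06). RNR1 rose by 0.78 ± 0.15, 0.81 ± 0.15 and 0.82 ± 0.15 (adjusted p = 0.000428, 0.00158 and 0.000306), and RNR2 and RNR4, which encode the small subunits, rose by 0.13 to 0.40 with acrolein and NEM. With H2O2 2 of the 4 were called, and 1 without H2O2 replicate 2 or 4 or control replicate 2 or 3, or in a fit of H2O2 and control alone. The list medians were 0.46, 0.41 and 0.61 for acrolein, H2O2 and NEM.

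The genes whose signal followed TAH18 most closely over the 16 arrays were found by Pearson's r among the named genes, as a description with no test, since the arrays share the 4 groups. They were FMP23 (r = 0.992), a mitochondrial protein gene, YCR102C (0.991) and YLR460C (0.983), which resemble quinone oxidoreductases, RIB3 (0.986), an enzyme of riboflavin synthesis, the kinase-like RTK1 (0.984), LTO1 (0.982), the amino acid permease BAP3 (0.982) and the plasma membrane protein SFK1 (0.981). Their sizes of change varied widely. With acrolein the difference was 8.20 ± 0.20 for YLR460C and 6.51 ± 0.12 for YCR102C, and 0.84 ± 0.04 for RIB3, against 4.76 for TAH18. The YLR460C control mean of 5.59 was near 5.15, the highest level of the probe sets for another species or for several genes.

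**Figure D5:**
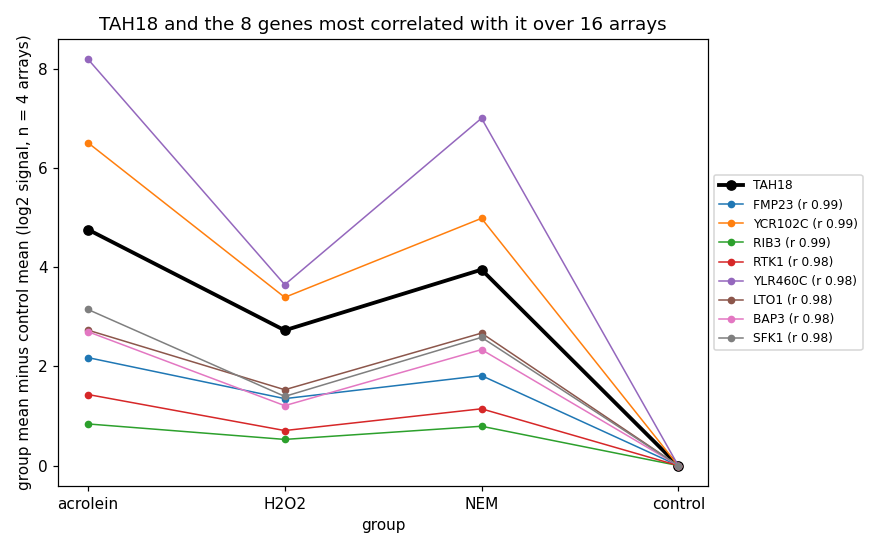
Group mean minus control mean in log2 signal (y axis, n = 4 arrays per group) for TAH18 (thick black line) and the 8 genes most correlated with it over 16 arrays, by group (x axis). Lines only join the points of a gene. Each gene is highest with acrolein, then NEM, then H2O2, an order that choosing genes by their correlation with TAH18 favours. The differences with acrolein run from 0.84 for RIB3 to 8.20 for YLR460C.

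Among the described genes, NBP35 was the closest to TAH18 (r = 0.973, rank 16 of the named genes), followed by CFD1 (0.966, rank 26), CIA2 (0.951, rank 56), DRE2 (0.949, rank 60) and NAR1 (0.929, rank 98). CIA1 and MET18 had an r of -0.43 and -0.79. Those most like DRE2 were SFA1 (r = 0.995), an alcohol dehydrogenase that detoxifies formaldehyde, GTT2 (0.995), a glutathione transferase, and AIF1 (0.994), a homolog of the apoptosis-inducing factor. All 3 were highest with NEM, as DRE2 was, a likeness that their choice by r favours. GTT2 had differences of 3.58 ± 0.07, 2.94 ± 0.07 and 3.75 ± 0.07 for acrolein, H2O2 and NEM.

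In the model of all 16 arrays, the neighbours of TAH18 on its chromosome were not called under any treatment. MSF1, the mitochondrial phenylalanine tRNA synthetase gene on one side, differed from the control by 0.11 ± 0.08, 0.01 ± 0.08 and 0.15 ± 0.08 (limma adjusted p = 0.214, 0.979 and 0.101). Without acrolein replicate 1 the MSF1 acrolein difference was 0.20 and was called (adjusted p = 0.00483), as was its NEM difference (0.15, adjusted p = 0.0155). The NEM difference of MSF1 was also called in a fit of NEM and control alone (0.15, adjusted p = 0.0254) and after quantile normalization (0.18, adjusted p = 0.0386). ATG11, an adaptor of selective autophagy on the other side, differed by -0.12 ± 0.13, -0.03 ± 0.13 and 0.20 ± 0.13 (adjusted p = 0.46, 0.939 and 0.216). ACT1, the actin gene, differed by 0.08 ± 0.05, 0.02 ± 0.05 and 0.15 ± 0.05 (adjusted p = 0.212, 0.8 and 0.0188), and its NEM call was lost without NEM replicate 4 (0.13, adjusted p = 0.0649) or control replicate 3 (0.13, adjusted p = 0.0587), after quantile normalization (0.11, adjusted p = 0.0982) and at a threshold of 0.01.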

How the data were processed

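The deposited values are log2 signals from GCRMA, which corrects for background and combines the probes of a set; the authors used it per the submitters' processing notes, which name no version. No further scaling was applied. Probe sets were named from the platform annotation and an R64 gene table, with 12 symbols updated. Of 10928 probe sets, 213 controls, 1747 of another yeast species or several genes, and those constant on all arrays were left out. A gene kept its probe set with the highest mean signal, which left 5771 probe sets.

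One linear model of all 16 arrays with a mean per group was fitted in limma 3.58.1 (R 4.3.3; 12 residual degrees of freedom), two-sided, with Benjamini-Hochberg adjustment over all probe sets in each comparison and a threshold of 0.05. The fit was tested on simulated data. RNA quality was compared by exact permutation tests, unpaired and, added after the data were seen, paired by replicate number. Python 3.11.15 with pandas 2.3.3 and scipy 1.17.1 did the rest. Precision is limited by the 4 arrays per group, and standard errors of differences had a median of 0.086.

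The members, lists and tests were chosen with earlier results of these data known. The naming rule takes the 8 genes, the neighbours of TAH18, ACT1, the 8 genes most correlated with TAH18, the 3 most correlated with DRE2, and up to 4 called genes with the largest difference per list and treatment, plus any whose pattern the text turns on. A planned count of promoter motifs was not run, as no sequences were used here. Same-numbered arrays had correlated residuals between acrolein and control (0.197 to 0.447), NEM and control (0.321 to 0.561) and acrolein and NEM (0.32 to 0.443). These replicate numbers, which come from the sample titles, may thus pair the arrays. Differently numbered arrays were not compared, and the labels state no batch. H2O2 replicates 1 and 2 correlated negatively with those of each other group. Alternatives included a replicate block, only the compared groups in the fit, another variance prior, weighted arrays, quantile or median scaling, a dim-probe filter, a floor, averaged probe sets, a threshold of 0.01 and left-out arrays.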

Additional observations from a re-analysis of the deposited data

Results flagged for a closer look

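Over 68 sets of 4 arrays, each a gene or RNA quality measure in 1 group, 2 held an array far from the other 3 by Dixon's test, where chance gives about 1 in 20. TAH18 read 13.37 on acrolein replicate 1, against 13.10 to 13.14 on the other acrolein arrays. That array also had the highest ribosomal RNA and 3′ minus 5′ signals of its group, whose part in the value was not tested; without it the TAH18 difference from the control was 4.70. The 3′ minus 5′ signal of control replicate 2 was 0.724, against 0.595 to 0.601 on the other control arrays.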

How the results depend on the processing

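Each comparison was repeated under 27 alternatives, 10 changes of setting, each of the 16 arrays left out, and acrolein replicate 1 and H2O2 replicate 4 left out together. The counts of called genes among the 7 tested were 6 with acrolein and 5 with H2O2 under all 27, and 6 with NEM except 5 at a threshold of 0.01. The calls of DRE2, NBP35, CFD1, NAR1 and CIA2 against the control were kept under all of these. With the replicate block the counts were again 6, 5 and 6, and the block changed no call of the 8 genes. Smaller shifts of a list count were treated as no change. The larger shifts with the block were all in the H2O2 lists. There 2 iron-sulfur proteins were called higher in place of 0. Lower were 2 mitochondrial genes in place of 1, and 1 flavoprotein gene in place of 0. H2O2 replicates 1 and 2 correlated at -0.203 and -0.055 with the same-numbered control arrays, and replicates 3 and 4 at 0.687 and 0.581. The numbers may thus not pair H2O2 replicates 1 and 2, and the block is a weak check for H2O2.

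Between acrolein and NEM the 3 calls became 0 in a fit of the 2 groups alone, 0 at a threshold of 0.01, and 1 with acrolein replicate 1 and H2O2 replicate 4 left out together; with single arrays left out the count ran from 1 to 3. The NBP35 call was lost under 13 of 27 alternatives, that of NAR1 under 15 and that of DRE2 under 2.

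Differences near 0 changed sign. With single arrays left out, CIA2 between acrolein and NEM ran from -0.088 to 0.0057, and with H2O2 against the control CIA1 ran from -0.0594 to 0.0328, MSF1 from -0.0287 to 0.0289, ATG11 from -0.1073 to 0.0245 and ACT1 from -0.0064 to 0.0617. MSF1 with H2O2 was -0.0001 after quantile normalization, and ACT1 with H2O2 was -0.0064 with acrolein replicate 1 and H2O2 replicate 4 left out together. The cause of these sign changes was not tested. The stricter threshold, applied to the same fit, lowered the H2O2 calls over all probe sets to 602, against 1148.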
